A study of Mus musculus with 12 samples.

Results

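Open chromatin around the colony stimulating factor genes Csf1, Csf2 and Csf3 and the interleukin 3 gene Il3 was described in 12 ATAC-seq libraries of a mouse macrophage line. The peaks of all 12 lists were merged where they overlapped or touched, regions present in at least 2 lists were kept, and those within 50 kb of the span of 1 of the 4 genes were taken, which gave 54 of 76042 regions. Each region was assigned to the nearest of the 4 genes, so that 21 belonged to Csf1, 11 to Csf2, 4 to Il3 and 18 to Csf3.

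The cells were RAW264.7 macrophages from 2 stable lines, each carrying a gene that doxycycline switches on. One line made Nur77, a nuclear receptor whose gene is Nr4a1, and the other made green fluorescent protein (GFP). All 4 groups received 1 µg/ml doxycycline for 18 h, the untreated ones included. They were Nur77 cells given 500 ng/ml lipopolysaccharide (LPS), an endotoxin of Gram-negative bacteria, for 1 h, untreated Nur77 cells, GFP cells given the same LPS, and untreated GFP cells, with 3 libraries each. Whether a line was 1 clone, and whether replicates were separate cultures, is not stated in the labels, so p-values measure the spread between these libraries, which may be technical, and a difference between the lines is a difference between these 2 lines.

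The 4 genes encode secreted haematopoietic growth factors. Csf1 encodes M-CSF, the main survival and differentiation factor of macrophages, which acts through the receptor tyrosine kinase encoded by Csf1r. Csf2 encodes GM-CSF and Il3 encodes interleukin 3, cytokines whose receptors share a beta chain and signal through JAK2 and STAT5, and the genes are neighbours on mouse chromosome 11. Csf3 encodes G-CSF, the growth factor of neutrophils, whose receptor signals mainly through STAT3. Activated macrophages are a known source of these factors other than interleukin 3, which is best known from T cells and mast cells.

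The promoter windows of 3 of the genes, Csf1, Csf2 and Il3, are shown. The promoter set used held no window for Csf3, so that gene was not searched for motifs. Calls differed between the 3 windows. A peak lay over the Csf1 window in every library, over the Csf2 window in some libraries and over the Il3 window in none. The sequences are from RefSeq (GRCm38.p6, the assembly also called mm10), run from 250 bases before to 50 bases after the start of the gene, and are written 5′ to 3′ on the minus strand that all 3 genes use. They lie at chr3:107760420-107760719 for Csf1, chr11:54249850-54250149 for Csf2 and chr11:54267230-54267529 for Il3. Capitals mark the matches to the motifs named in the next paragraph.
Csf1: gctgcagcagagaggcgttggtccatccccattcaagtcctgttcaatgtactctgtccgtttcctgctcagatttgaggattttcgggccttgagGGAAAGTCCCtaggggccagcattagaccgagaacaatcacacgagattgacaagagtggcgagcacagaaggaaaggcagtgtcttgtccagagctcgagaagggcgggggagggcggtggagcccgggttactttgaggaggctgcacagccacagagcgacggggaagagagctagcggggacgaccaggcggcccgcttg
Csf2: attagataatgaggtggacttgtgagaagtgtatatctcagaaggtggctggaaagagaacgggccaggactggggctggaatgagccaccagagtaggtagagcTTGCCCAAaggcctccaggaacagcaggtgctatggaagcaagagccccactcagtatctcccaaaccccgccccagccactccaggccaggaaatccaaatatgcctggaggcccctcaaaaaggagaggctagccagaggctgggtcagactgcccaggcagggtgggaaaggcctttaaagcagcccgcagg
Il3: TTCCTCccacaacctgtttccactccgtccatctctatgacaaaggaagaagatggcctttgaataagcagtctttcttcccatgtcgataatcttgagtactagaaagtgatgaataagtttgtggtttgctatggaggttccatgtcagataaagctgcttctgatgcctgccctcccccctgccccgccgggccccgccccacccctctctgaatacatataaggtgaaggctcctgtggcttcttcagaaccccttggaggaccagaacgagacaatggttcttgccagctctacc

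Both strands of each window were searched for AP-1 (TGANTCA), the cyclic AMP response element (TGACGTCA), the NF-kB consensus, the Nur77 response element NBRE (AAAGGTCA), C/EBP (TTGCNNAA), the core of the PU.1 site (GAGGAA) and the core of the interferon-stimulated response element. The Csf1 window held 1 NF-kB match, read on the opposite strand, at bases 97 to 106. The Csf2 window held 1 C/EBP match, at bases 106 to 113, and the Il3 window held 1 PU.1 core on the opposite strand, at bases 1 to 6. No 2 matches overlapped. Of 32851 RefSeq promoter windows of the same length, 8.46% held the NF-kB consensus, 10.8% the C/EBP motif and 28.3% the PU.1 core, against 7.81% for AP-1, 1.79% for the cyclic AMP element, 1.51% for NBRE and 3.44% for the interferon element.

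The lists of the libraries differed in length. They held 59858, 44790 and 52895 peaks in Nur77 cells with LPS, 55656, 36184 and 55446 in untreated Nur77 cells, 48275, 56888 and 81467 in GFP cells with LPS, and 54515, 65014 and 65061 in untreated GFP cells. Read totals were not used here, so the depth behind a list is unknown, and a missing call means only that no peak was detectable there at that depth. In these bulk libraries, fewer cells with an open region and a less open region in each cell cannot be told apart. Within Nr4a1, a region on chromosome 15 from 101270092 to 101272260 was listed in 6 of 6 Nur77 and 0 of 6 GFP libraries. All 10 macrophage marker genes had a region at a gene end in all 12 libraries, whereas 13 of 18 markers of T cells, B cells, fibroblasts and epithelium had none in any library. Cd4, Cd79a and Col1a1 had one in every library, Ms4a1 in 5 and Pdgfrb in 7.

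Of the 54 regions, 21 (38.9%) were called in all 12 libraries, against 34.7% of all 76042 regions, and 12 were called in 2 or 3 libraries. Those called in all 12 numbered 6 of 21 at Csf1, 3 of 11 at Csf2, 0 of 4 at Il3 and 12 of 18 at Csf3. The regions had a median width of 1086 bp, against 901 bp over all regions. Another protein-coding gene was nearest for 21 of the 54, among them 17 of the 18 assigned to Csf3, which lay in or near Gsdma, Gsdma2, Psmd3, Med24 and Thra, and 2 of the 4 assigned to Il3, which lay inside Acsl6. Through their closeness, 11 regions lay within 50 kb of both Csf2 and Il3. At the distance limit, the last regions inside lay 49.2 kb from Csf1 (called in 3 libraries), 49.6 kb from Il3 (4 libraries) and 49.9 kb from Csf3 (12 libraries), and the next outside lay just past the limit for Csf1 (4 libraries), 59.4 kb from Il3 (2 libraries) and 59.0 kb from Csf3 (8 libraries). For Csf2 these were 44.9 kb (9 libraries) and 57.3 kb (8 libraries), and the outer of them counts under Il3. A further 16 regions within 50 kb were in 1 list each and were not used, and 8 of the 54 were in exactly 2.

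**Figure D1:**
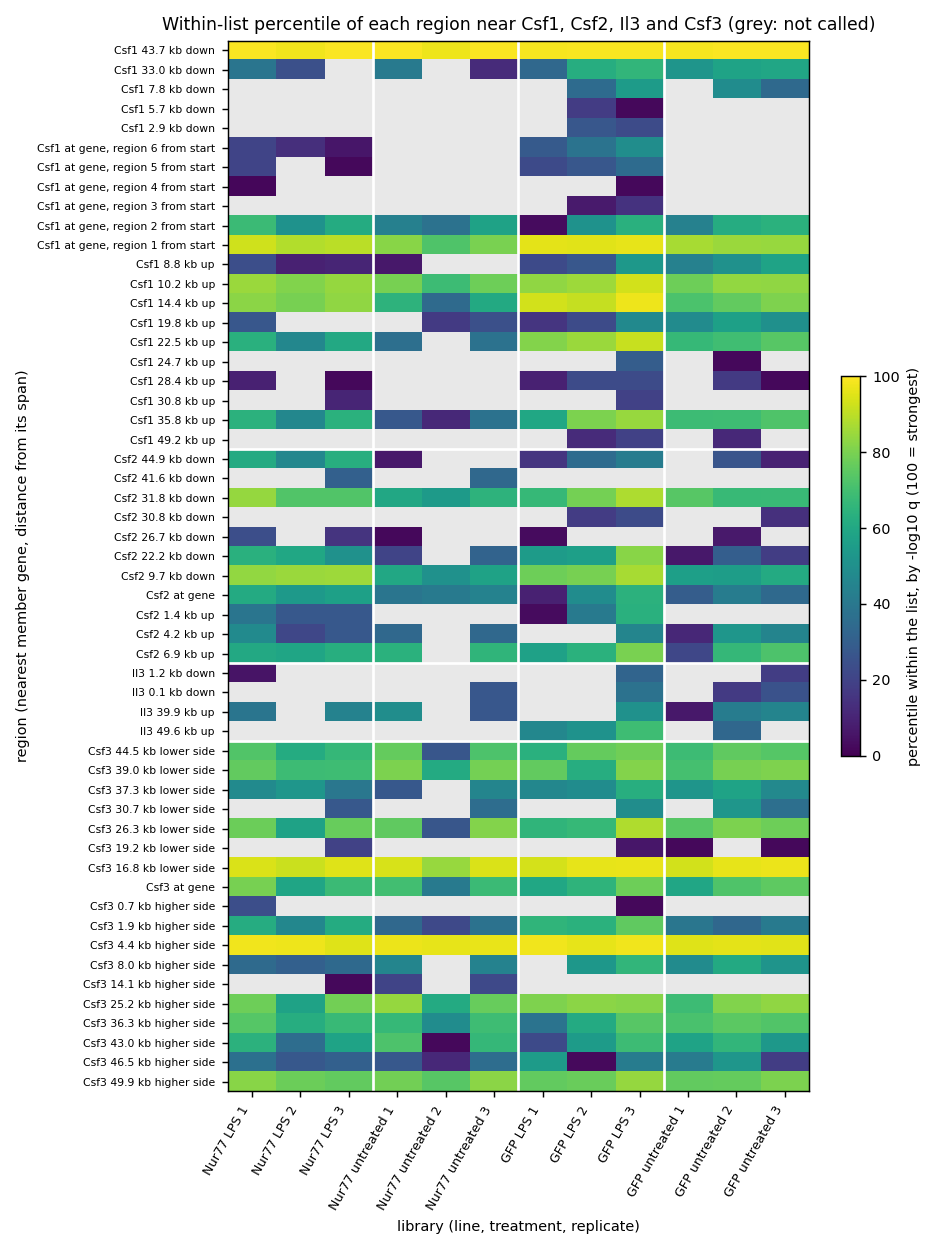
Each row is 1 of the 54 regions, labelled by nearest gene and distance from its span, and each column 1 library, with colour giving the percentile of the region's strongest peak by -log10 q within that library's own list (100 is strongest, grey is not called). The 2 brightest rows are the region 43.7 kb downstream of Csf1 and the one 4.4 kb above Csf3, which are bright in all 12 libraries, while the Il3 block is mostly grey.

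A pair of measures was used, since ranks from lists of different length show no change. The first is whether a library called a region at all. The second is the shared-set percentile, the rank by the authors' -log10 q among the 26378 regions called in all 12 libraries, from 0 (weakest) to 100 (strongest), which compares the same regions in every library. The ranks were turned into normal scores, a scale on which 1 unit is 1 standard deviation over all shared regions, and were tested with limma (Benjamini-Hochberg adjustment over the 26378 regions). A list percentile, the rank within a library's whole list, and the authors' fold enrichment only describe a peak within its own list.

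After 1 h of LPS, averaged over both lines, 7 of the 21 regions near the 4 genes rose in rank and 0 fell. They were 4 of 6 at Csf1, 2 of 3 at Csf2 and 1 of 12 at Csf3. Over all shared regions, 13.4% rose and 13% fell. The median change was 0.13 over the 21 regions and -0.04 over all regions. Each of the 7 stayed past the adjusted threshold in each of the 18 or 19 alternatives in which it was in the shared set. Whether groups overlapped is described below from the same values as the tests, so it adds no support to them. The share of all shared regions without overlap was not counted.

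At Csf1 (chr3:107741048-107760469), the region that rose and lies at the gene start (chr3:107758485-107761107) covers the promoter window shown above. Its shared-set percentiles were 83.8, 80.9 and 79.8 in Nur77 cells with LPS, against 63.3, 63.1 and 58.3 in untreated Nur77 cells. In GFP cells they were 92.7, 90.3 and 88.2 with LPS, against 73.2, 63.7 and 62.2 untreated. All LPS libraries stood above all untreated libraries. The rise was 0.60 ± 0.12 units (SE) in the Nur77 line and 0.88 ± 0.12 in the GFP line (limma, adjusted p = 0.0065 and 0.00046). The peak over the window was enriched 81.51-, 64.87- and 58.33-fold over the caller's background in Nur77 cells with LPS and 42.08-, 24.97- and 40.37-fold in untreated Nur77 cells, by the authors' values. In GFP cells these values were 53.86-, 69.83- and 91.02-fold with LPS and 44.81-, 40.73- and 41.13-fold untreated. The median of its summits over the 12 libraries was chr3:107760338, inside the gene and past the end of the printed window.

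Upstream of Csf1, a wide region 14.4 kb from the gene (chr3:107774835-107779208) had shared-set percentiles of 61.0, 66.0 and 67.6 in Nur77 cells with LPS, against 30.2, 19.8 and 23.4 untreated. The GFP libraries stood at 87.8, 81.5 and 92.7 with LPS, against 43.7, 43.3 and 53.7 untreated. The groups did not overlap in either line, and averaged over both lines the region rose by 1.17 ± 0.11 units (limma, adjusted p = 9.1e-06). At 35.8 kb upstream (chr3:107796309-107797528), the percentiles were 26.0, 20.4 and 33.8 in Nur77 cells with LPS, against 2.2, 4.0 and 4.2 untreated, and 34.8, 58.8 and 54.5 in GFP cells with LPS, against 37.8, 29.2 and 35.8 untreated. Here the GFP groups overlapped, the rise in the Nur77 line was 1.21 ± 0.17 (adjusted p = 0.00071), and the difference of 0.39 in the GFP line did not pass (95% interval 0.02 to 0.76, adjusted p = 0.14). The region 10.2 kb upstream (chr3:107770625-107773635) rose by 0.35 ± 0.08 averaged over both lines (adjusted p = 0.0057). It had 66.0, 68.2 and 68.7 in Nur77 cells with LPS, 57.4, 58.2 and 54.4 untreated, 70.8, 69.6 and 78.8 in GFP cells with LPS, and 55.1, 60.9 and 59.6 untreated, with no overlap in either line.

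**Figure D2:**
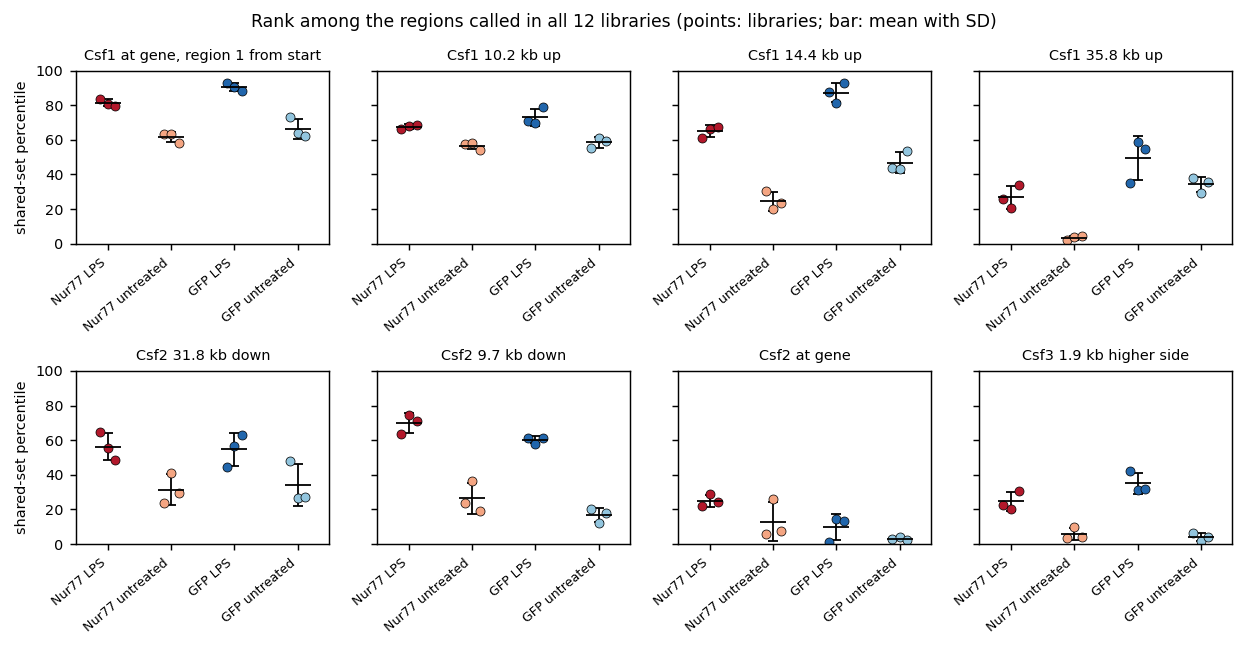
Each panel is 1 region called in all 12 libraries, with the shared-set percentile (0 to 100) on the vertical axis, 1 point per library in 4 groups, and a bar for the mean with its SD (n = 3). The untreated Nur77 points of the region 35.8 kb upstream of Csf1 lie between 2.2 and 4.2, below every other library, and at the region 9.7 kb downstream of Csf2 all LPS points lie above all untreated points.

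The other 2 shared regions at Csf1 did not change with LPS past the threshold. One lies inside the gene (chr3:107754470-107755234), with 32.2, 25.4 and 30.8 in Nur77 cells with LPS and 8.0, 22.8 and 19.3 untreated, and 0.4, 16.5 and 12.4 in GFP cells with LPS and 8.9, 18.8 and 21.5 untreated (average change -0.06, 95% interval -0.60 to 0.48). The GFP groups overlapped and the Nur77 groups did not. The other, inside Ahcyl1 and 43.7 kb downstream of Csf1 (chr3:107695366-107697394), was the strongest region near Csf1, with list percentiles from 97.5 to 99.5 over the 12 libraries and an average change of -0.09 (95% interval -0.32 to 0.15).

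In the lists as deposited, calls also separated the treatments at Csf1. In lists trimmed to equal length this separation was lost, and 2 other regions separated the treatments in the GFP line in the opposite direction. A region over the 3′ end of the gene (chr3:107738711-107741067) was called in 6 of 6 LPS libraries and 0 of 6 untreated libraries. Its list percentiles were 20.7, 13.5 and 6.0 in Nur77 cells with LPS and 28.4, 38.1 and 49.0 in GFP cells with LPS, with fold enrichments from 4.96 to 10.20. A region inside the gene (chr3:107748334-107749249) was called in 5 of 6 LPS libraries, at list percentiles of 20.7 and 2.0 in Nur77 replicates 1 and 3 and 22.3, 27.3 and 35.0 in GFP cells, and in 0 of 6 untreated libraries. These are low ranks. In lists trimmed to the 36184 strongest peaks, the number in the shortest list, the region at the 3′ end was called in 0 of 3 Nur77 and 2 of 3 GFP libraries with LPS and in 0 of 6 untreated libraries, and the region inside the gene in 0 of 12. In the GFP line, the regions 8.8 and 19.8 kb upstream (chr3:107769251-107770334 and chr3:107780223-107781771) were each called there in 0 of 3 libraries with LPS and 3 of 3 untreated. The remaining regions inside the gene, chr3:107749449-107749826 and chr3:107750698-107751152, were each called in 2 libraries, all with LPS, at list percentiles from 1.8 to 14.8. They were kept through those 2 lists alone, and the share of all regions with this pattern was not counted.

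At Csf2 (chr11:54247270-54249899), the largest change in rank among the 3 regions called in all 12 libraries lay 9.7 kb downstream of the gene (chr11:54235698-54237532). Its shared-set percentiles were 63.8, 74.8 and 71.0 in Nur77 cells with LPS, against 23.6, 36.5 and 19.3 untreated, and 61.3, 57.8 and 61.3 in GFP cells with LPS, against 20, 12.1 and 18.0 untreated. The LPS libraries of both lines stood above all untreated libraries. The rise was 1.17 ± 0.15 units in the Nur77 line and 1.23 ± 0.15 in the GFP line (limma, adjusted p = 0.00035 and 0.00019), and the 2 rises differed by -0.06 (95% interval -0.52 to 0.39). At 31.8 kb downstream (chr11:54214201-54215512) the values were 64.7, 55.6 and 48.7 in Nur77 cells with LPS, 23.6, 41.0 and 29.5 untreated, 44.4, 56.9 and 62.9 in GFP cells with LPS, and 48.0, 26.7 and 27.2 untreated. The GFP groups overlapped, and averaged over both lines the region rose by 0.60 ± 0.14 (adjusted p = 0.0057).

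The region at the Csf2 start (chr11:54249038-54250324) was called in all 12 libraries at low shared-set ranks, 21.7, 28.7 and 24.2 in Nur77 cells with LPS, 5.7, 25.8 and 7.4 untreated, 1.4, 14.7 and 13.3 in GFP cells with LPS, and 3.0, 4.2 and 2.1 untreated. The groups of each line overlapped, and the average change of 0.49 did not pass (95% interval 0.04 to 0.93, adjusted p = 0.1). Over the printed window itself a peak was called in 3 of 3 Nur77 libraries with LPS, 2 of 3 untreated Nur77 libraries, 1 of 3 GFP libraries with LPS and 1 of 3 untreated GFP libraries. The summits of these peaks lay inside the gene, and the median summit of the region over all 12 libraries was chr11:54249471.

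Just upstream, 1.4 kb from Csf2 (chr11:54251263-54252234), a region was called in 6 of 6 LPS libraries and 0 of 6 untreated libraries. Its list percentiles were 38.8, 27.7 and 27.4 in Nur77 cells with LPS and 3.0, 41.1 and 63.5 in GFP cells with LPS. The authors' fold enrichments were 10.06, 8.41 and 8.07 in Nur77 cells and 4.25, 9.55 and 15.51 in GFP cells. In equal-length lists it was called in 1 of 3 Nur77 and 2 of 3 GFP libraries with LPS and in 0 of 6 untreated libraries, so that the separation of all LPS from all untreated libraries was lost. A region 22.2 kb downstream (chr11:54223444-54225058) was called in 6 of 6 LPS libraries, at list percentiles of 63.5, 59.6 and 50.4 in Nur77 cells and 55.0, 56.6 and 82.2 in GFP cells, and in 5 of 6 untreated libraries, at 20.5 and 31.7 in Nur77 cells and 6.3, 29.9 and 18.2 in GFP cells. Farther out, 44.9 kb downstream (chr11:54201182-54202332), 6 of 6 LPS and 3 of 6 untreated libraries had a peak, at list percentiles of 61.3, 46.3 and 62.7 in Nur77 cells with LPS, 6.3 in untreated Nur77 replicate 1, 15.5, 34.9 and 41.9 in GFP cells with LPS, and 26.2 and 9.5 in untreated GFP replicates 2 and 3.

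**Figure D3:**
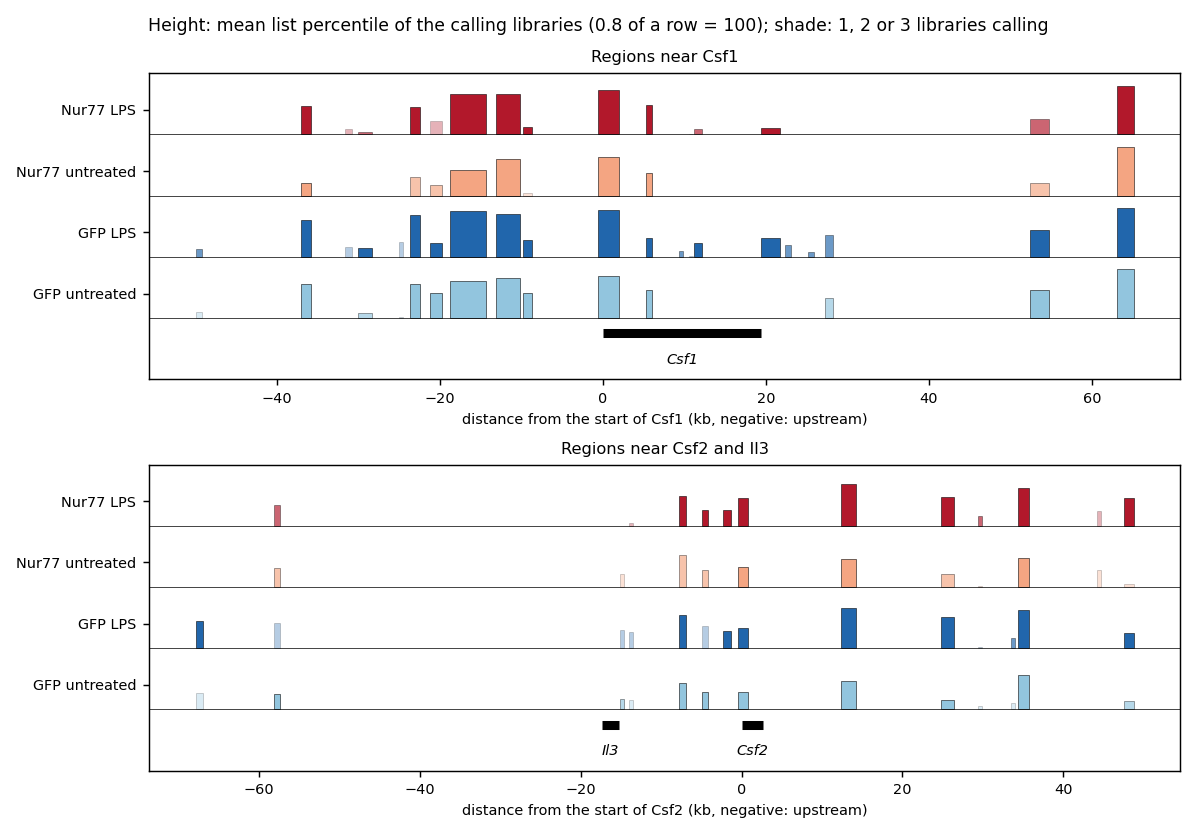
Both maps run along the distance from a gene start (Csf1 above, Csf2 with Il3 below, in kb, negative upstream), with a row for each of the 4 groups, bar height for the mean list percentile of the libraries that called a region and a darker shade for more of the 3 libraries. The bar 1.4 kb upstream of Csf2 and the one at the 3′ end of Csf1 are drawn in both LPS rows and in neither untreated row, and no bar covers Il3 itself.

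Il3 (chr11:54265085-54267279) had no region over the gene and none called in all 12 libraries. The nearest, 0.1 kb downstream (chr11:54264468-54264970), was called in 4 libraries, untreated Nur77 replicate 3 at list percentile 27.2, GFP with LPS replicate 3 at 37.5, and untreated GFP replicates 2 and 3 at 17.0 and 25.3. That is 1 of 6 LPS and 3 of 6 untreated libraries. A region 1.2 kb downstream was called in 3 libraries, at list percentiles from 5.4 to 32.4, and one inside Acsl6, an acyl-CoA synthetase gene, 39.9 kb upstream of Il3 was called in 8. Within Acsl6, 49.6 kb upstream of Il3 (chr11:54316854-54317731), a region was called in 3 of 3 GFP libraries with LPS, at list percentiles of 46.1, 51.0 and 69.1, in 1 of 3 untreated GFP libraries, at 33.4, and in 0 of 6 Nur77 libraries.

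At Csf3 (chr11:98700183-98703631), the region that overlaps the gene (chr11:98698620-98702841) did not change with LPS past the threshold. Its shared-set percentiles were 54.7, 34.6 and 40.6 in Nur77 cells with LPS, 38.5, 25.8 and 35.1 untreated, 34.8, 32.8 and 37.2 in GFP cells with LPS, and 23.3, 36.1 and 41.5 untreated, and the groups of each line overlapped (average change 0.16, 95% interval -0.10 to 0.41). The 1 region that rose lies 1.9 kb from Csf3, on the side of higher coordinates and inside Med24, a subunit gene of the Mediator complex (chr11:98705567-98706868). It had 22.8, 20.4 and 30.8 in Nur77 cells with LPS, against 3.7, 9.9 and 4.2 untreated, and 42.2, 31.1 and 31.9 in GFP cells with LPS, against 6.3, 2.0 and 3.8 untreated. No LPS library overlapped the untreated ones, and the average rise was 1.15 ± 0.12 (limma, adjusted p = 2.6e-05). Next to it, a region 0.7 kb from Csf3 (chr11:98704351-98704882) was called in 2 libraries, both with LPS. It was kept through those 2 lists alone, and the share of all regions with this pattern was not counted. The strongest region near Csf3, 4.4 kb away and also inside Med24 (chr11:98707995-98711517), had list percentiles from 95.1 to 97.9 and an average change of 0.16 (95% interval -0.05 to 0.37).

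Within the lines, 6 of the 21 shared regions rose with LPS and 0 fell in the Nur77 line, where 7.58% of all shared regions rose and 4.92% fell. In the GFP line 5 rose and 1 fell, where 9.57% of all rose and 6.99% fell. The region that fell lies inside Thra, a thyroid hormone receptor gene, 36.3 kb from Csf3 (chr11:98739930-98743643), with 14.2, 27.4 and 28.7 in GFP cells with LPS, against 42.5, 40.3 and 36.8 untreated (-0.49 ± 0.14, adjusted p = 0.027). The same region had 42.9, 39.7 and 39.3 in Nur77 cells with LPS, against 33.8, 34.0 and 36.7 untreated (0.15, 95% interval -0.14 to 0.45, not past the threshold). Without GFP LPS replicate 1, or without untreated GFP replicate 1 or 2, the fall in the GFP line was no longer past it (adjusted p = 0.091, 0.086 and 0.074). The rise 10.2 kb upstream of Csf1 passed in the GFP line (0.40 ± 0.11, adjusted p = 0.026), but not without any 1 of untreated GFP replicates 1 to 3 or GFP LPS replicate 3 (adjusted p from 0.052 to 0.097). In the Nur77 line its 0.29 did not pass (adjusted p = 0.11). The rise 31.8 kb downstream of Csf2 passed in the Nur77 line (0.66 ± 0.19, adjusted p = 0.042) but not without untreated Nur77 replicate 1 or 3, Nur77 LPS replicate 1, 2 or 3 or GFP LPS replicate 2 (adjusted p from 0.054 to 0.14).

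In the tests on calls, 11 of the 54 regions were called in 4 to 8 libraries and entered the 6 against 6 comparison of LPS with untreated libraries. At an unadjusted p under 0.05, 3 were called more often with LPS and 0 less often. Over all 20292 regions tested, 5.56% were called more often and 1.48% less often. The 3 were the regions at the 3′ end of Csf1 and 1.4 kb upstream of Csf2 (two-sided Fisher's exact test, p = 0.0022 each) and the one inside Csf1 (exact p = 0.015). After adjustment over the 20292 regions 0 passed, for these genes and in the whole series (0%), with a lowest adjusted p of 0.0935 at the smallest p that this design allows, 0.00216. The pattern of the first 2, all LPS and no untreated libraries, was held by 0.568% of all regions, and the opposite pattern by 0.05% of all regions and 0 of the 54. In lists trimmed to the 36184 strongest peaks, 1 of 6 tested regions passed, the one 22.2 kb downstream of Csf2, called in 6 of 6 LPS and 0 of 6 untreated libraries there (exact test, adjusted p = 0.034), where 5.33% of 10396 regions passed in that direction.

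Counted line by line, a region called in 3 of 3 libraries with LPS and 0 of 3 untreated was termed gained, and the opposite lost. In the Nur77 line 2 of 46 regions with a call were gained and 0 lost, against 2.25% and 0.533% of all regions. In the GFP line 3 of 52 were gained and 0 lost, against 1.99% and 1.04%. Both gained regions of the Nur77 line are among the 3 of the GFP line, and the remaining one is the region inside Csf1. None of these 3 was gained in equal-length lists, where other regions took their place. There the Nur77 line had 2 gained regions of 33 and 0 lost, the gained being those 22.2 and 44.9 kb downstream of Csf2, against 2.97% and 1.55% of all regions. In the GFP line 2 of 35 were gained (22.2 kb downstream of Csf2 and 49.6 kb upstream of Il3) and 2 lost (8.8 and 19.8 kb upstream of Csf1), against 3.86% and 2.13%. With 3 libraries against 3, a two-sided exact p cannot go below 0.1. Without GFP LPS replicate 1, 6 regions counted as gained in the GFP line. Without GFP LPS replicate 3, 2 counted as lost. In the Nur77 line, 4 counted as gained without untreated replicate 1 and 4 without LPS replicate 2. Leaving out a library relaxes the rule for every region, and the shares of all regions in these settings are not given here.

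Between the lines, 2 of the 3 shared regions upstream of Csf1 ranked lower in Nur77 cells. The third, 10.2 kb upstream, did not pass, with a difference of -0.16 after LPS (95% interval -0.40 to 0.08, limma, adjusted p = 0.43) and -0.05 without LPS (95% interval -0.29 to 0.19, adjusted p = 0.86). The region 14.4 kb upstream stood at 61.0 to 67.6 in Nur77 cells and 81.5 to 92.7 in GFP cells after LPS (-0.79 ± 0.15, limma, adjusted p = 0.0099), and at 19.8 to 30.2 in Nur77 cells and 43.3 to 53.7 in GFP cells without LPS (-0.62 ± 0.15, adjusted p = 0.029). At 35.8 kb upstream the percentiles were 20.4 to 33.8 in Nur77 cells and 34.8 to 58.8 in GFP cells after LPS (-0.61 ± 0.17, adjusted p = 0.048), and 2.2 to 4.2 in Nur77 cells and 29.2 to 37.8 in GFP cells without LPS (-1.43 ± 0.17, adjusted p = 0.0007). The lines did not overlap in any of these 4 comparisons, but the share of all shared regions without such overlap was not counted. The difference at 14.4 kb after LPS and that at 35.8 kb without LPS passed in all 18 alternatives in which they could be computed. The other 2 were less stable, since the difference at 35.8 kb after LPS was lost in 13 of 18 alternatives (adjusted p up to 0.16), and that at 14.4 kb without LPS in 6 of 18 (up to 0.12), among them each of the 3 that leave out an untreated GFP library and those that leave out untreated Nur77 replicate 2 or 3.

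In the other direction, the region inside Thra, 36.3 kb from Csf3, ranked higher in Nur77 cells after LPS, at 39.3 to 42.9, against 14.2 to 28.7 in GFP cells (0.51 ± 0.14, adjusted p = 0.04), and this was lost in 11 of 18 alternatives (adjusted p up to 0.13). At the Csf2 start the Nur77 libraries after LPS stood at 21.7 to 28.7, against 1.4 to 14.7 in GFP cells, without overlap, but the difference of 0.77 did not pass (limma, adjusted p = 0.13). Altogether 1 of the 21 shared regions was higher and 2 lower in Nur77 cells after LPS, against 2.49% and 4.73% of all shared regions, and 0 were higher and 2 lower without LPS, against 2.49% and 4.19%. The median difference of the 21 regions was 0.04 after LPS and -0.05 without LPS, against 0.03 and 0.02 over all shared regions.

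**Figure D4:**
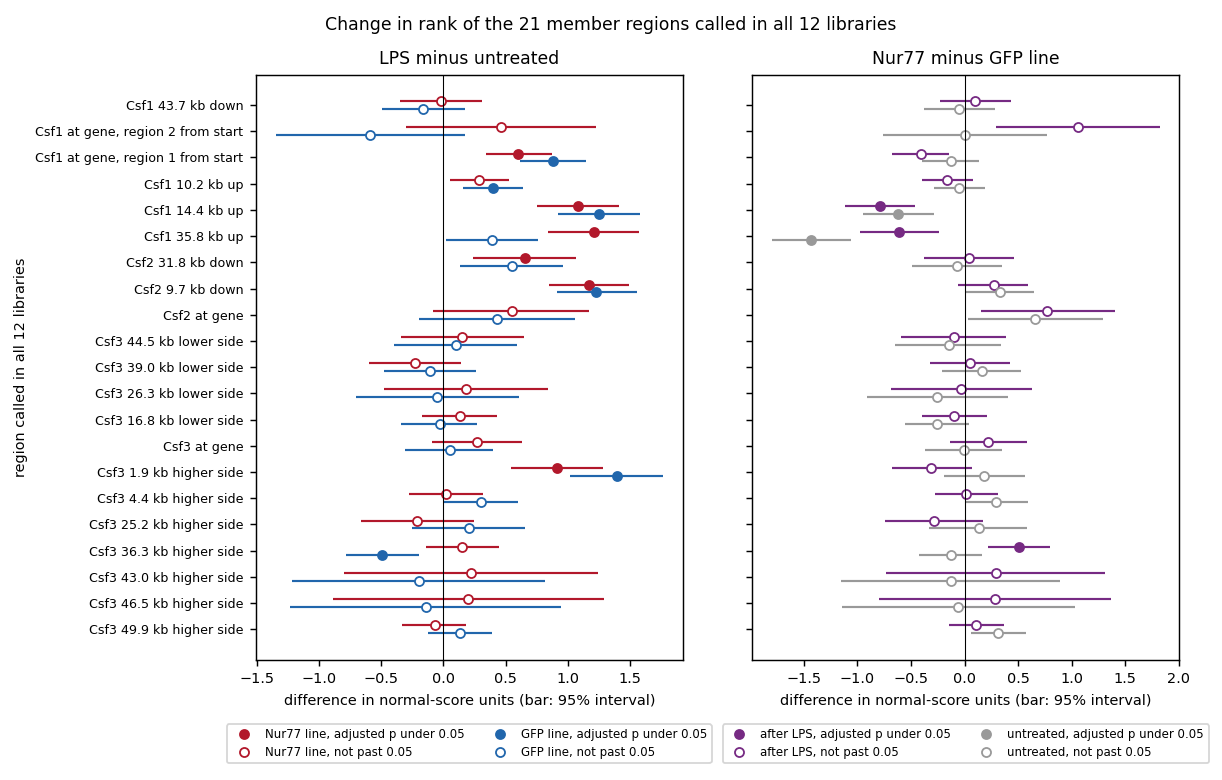
Each row is 1 of the 21 regions called in all 12 libraries, and the horizontal axes give the difference in normal-score units with its 95% interval, LPS minus untreated on the left and Nur77 minus GFP line on the right, with filled points where the adjusted p was under 0.05. Filled points to the right of 0 in the left panel are at Csf1, Csf2 and 1.9 kb from Csf3, and the filled points to the left of 0 in the right panel are the regions 14.4 and 35.8 kb upstream of Csf1.

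The rise with LPS itself was compared between the lines in a test of the interaction. By limma it passed at 0 of the 21 regions and 0% of all shared regions, with 2 of the 21 and 1944 of 26378 at an unadjusted p under 0.05. These 2 were the region 35.8 kb upstream of Csf1, with a larger LPS difference in the Nur77 line by 0.82 (95% interval 0.30 to 1.34, adjusted p = 0.48), and the region inside Thra. At the Csf1 start the difference of the 2 rises was -0.28 (95% interval -0.65 to 0.09) and at 14.4 kb upstream -0.17 (95% interval -0.63 to 0.30). Differences within these intervals are compatible with the data, and the smallest detectable difference was not determined.

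Calls gave 0 of 11 regions at an unadjusted p under 0.05 between the lines over all 12 libraries, where 0.651% of all tested regions were called more often in Nur77 cells and 7.32% less often. After adjustment 0% of all passed (two-sided Fisher's exact test, lowest adjusted p = 0.0923). After LPS, 0 of 54 regions were gained in Nur77 cells and 1 was lost, the region inside Acsl6 49.6 kb upstream of Il3, against 0.318% gained and 2.29% lost of all regions. Without LPS, 0 of 45 were gained and 0 lost, against 0.335% and 3.71%. The lost count after LPS was 7 without GFP LPS replicate 1 and 2 without Nur77 LPS replicate 1, settings in which the rule is relaxed for every region. A region 7.8 kb downstream of Csf1 (chr3:107732300-107733264) was called in 0 of 6 Nur77 and 4 of 6 GFP libraries, 2 of them with LPS and 2 untreated. It did not reach the unadjusted threshold (two-sided Fisher's exact test, p = 0.061), and the share of all regions with this pattern was not counted. In equal-length lists only 1 library called it, an untreated GFP library.

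The number of regions called near a gene was compared in lists as deposited and in equal-length lists. Near Csf1 the libraries called 14, 10 and 12 of the 21 regions in Nur77 cells with LPS and 9, 7 and 9 untreated. In GFP cells they called 13, 18 and 21 with LPS and 10, 14 and 12 untreated. Of all regions, the same libraries called 71.8, 54.6 and 61.8% in Nur77 cells with LPS and 65.6, 43.3 and 67.7% untreated. In GFP cells these shares were 56.4, 67.5 and 89.4% with LPS and 65.5, 75.4 and 76.4% untreated. The GFP LPS library with all 21 has the longest list, and the untreated Nur77 library with 7 the shortest, but the order was not that of list length throughout, since GFP LPS replicate 2 called 18 from 56888 peaks and untreated GFP replicate 3 called 12 from 65061. In equal-length lists the means for Csf1 were 7.33 ± 0.58 in Nur77 cells with LPS and 7.0 ± 0.0 untreated, and 8.33 ± 0.58 in GFP cells with LPS and 10.33 ± 0.58 untreated (SD, n = 3 each). Near Csf2 the equal-length means were 7.0 ± 1.0 in Nur77 cells with LPS and 3.67 ± 0.58 untreated, and 5.33 ± 1.15 in GFP cells with LPS and 3.33 ± 1.15 untreated. The Csf2 libraries with LPS called 6 to 8 in Nur77 cells and 4 to 6 in GFP cells, against 3 to 4 and 2 to 4 untreated, so that the groups overlapped only in GFP cells. The shares of all regions called in equal-length lists are not given here.

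**Figure D5:**
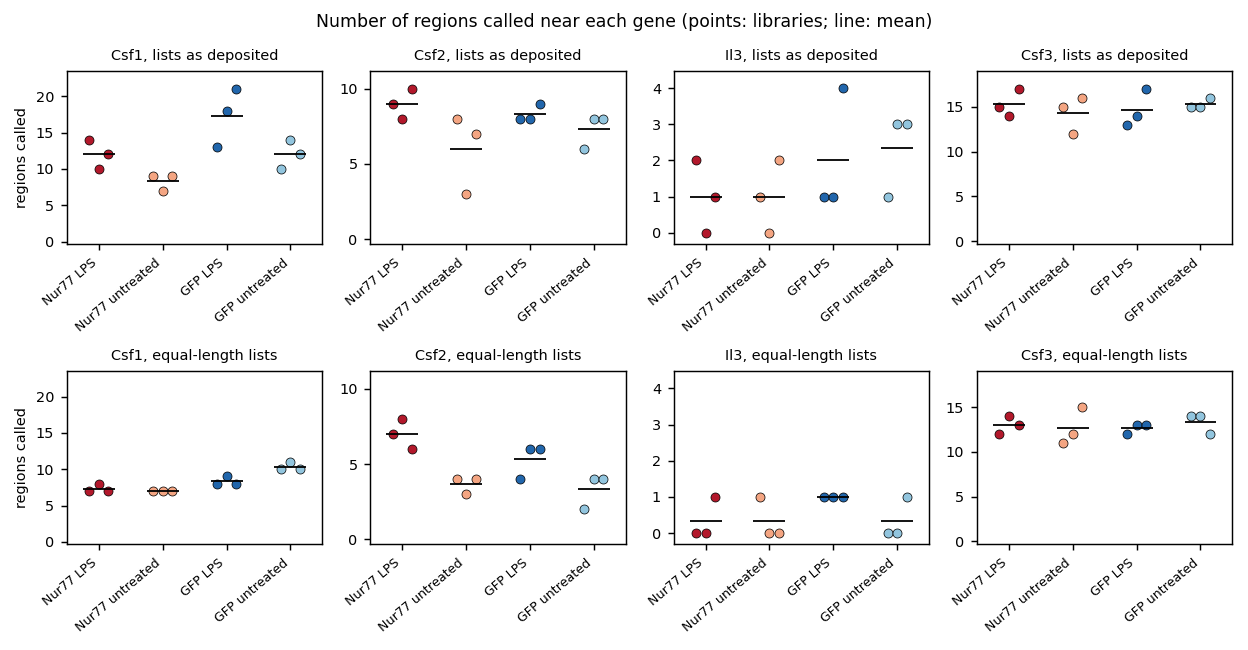
The points are the number of regions called near each gene in each library, with the group mean as a line, for the lists as deposited (top) and for lists trimmed to the same length (bottom). For Csf1 the LPS means stand above the untreated means in the top row in both lines and below in the GFP line in the bottom row, while for Csf2 they stand above in both rows.

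Of the other genes of these pathways, 21 were taken as a list: ligands (Il34, Il5), receptors, and signalling proteins and their targets, with 292 regions within 50 kb, 110 of them shared. With LPS averaged over both lines, 15 of the 110 rose and 13 fell, near the 13.4% and 13% of all shared regions, and the median change was -0.03. The counts of single genes that follow stand against these shares. At the receptor genes, 0 regions rose and 2 fell near Csf1r, and 0 rose and 1 fell near each of Csf2ra, Csf2rb and Csf3r. Near Csf2rb2, a second beta chain gene of mice beside Csf2rb, 1 rose and 1 fell, and the region that fell is the one counted at Csf2rb. At Cish, an inhibitor gene that STAT5 activates, 3 of 7 rose and 0 fell, among them the region at the gene itself (chr9:107294001-107297271, 0.92 ± 0.09, adjusted p = 1.8e-05). Near Fes, a tyrosine kinase gene of myeloid cells, 3 of 9 rose and 0 fell, with the largest change of the list 24.2 kb away (chr7:80412158-80413029, 1.72 ± 0.09, adjusted p = 2.1e-07). Near Pim1, a kinase gene and STAT target, 2 of 6 rose and 0 fell. Other signalling genes were mixed. Near Grb2, 1 of 12 rose and 3 fell, and near Stat5b, 2 of 9 rose and 2 fell. Near each of Stat3, Stat5a, Inpp5d and Shc1, 0 rose and 1 fell. Near each of Jak2 and Gab2, 1 rose and 0 fell, and near Cbl 0 rose and 0 fell. Some regions count at more than 1 of the Stat genes. Between the lines, 4 of the 110 ranked higher and 1 lower in Nur77 cells after LPS, against 2.49% and 4.73% of all shared regions, and 0 higher and 1 lower without LPS, against 2.49% and 4.19%. Of the 292, 0 were called in all LPS and no untreated libraries, against 0.568% of all regions.

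As a description of likeness, the mean percentile of the regions within 10 kb in equal-length lists (0 where not called) was correlated over the 12 libraries with that of the other protein-coding genes, 15688 in all, leaving out those within 1 Mb. The libraries share treatment and line, and no p-value is given. For Csf2 the values were 31.4, 37.2 and 32.1 in Nur77 cells with LPS, 17.8, 18.3 and 19.4 untreated, 22.7, 27.5 and 32.5 in GFP cells with LPS, and 6.9, 14.9 and 16.3 untreated, with the LPS libraries above the untreated ones in each line. Closest to it were Stk40 (Pearson r = 0.953), Zmym2 (0.944) and Enpp4 (0.943). Closest to Csf1 were Zfp609 (0.893), Tex36 (0.864) and Tmem238 (0.836), and closest to Csf3 were Msra (0.985), Col5a3 (0.974) and Gdnf (0.972). Il3 rested on 1 region in this measure, also near Csf2, and was closest to Igsf5 (0.961), Morc3 (0.936) and Slc18a2 (0.931).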

How the data were processed

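The 12 narrowPeak lists, 1 per library, are the authors' deposited calls in mm10. The submitters' processing notes name cutadapt 2.6 and DiffBind 3.0.15, with the aligner and the caller not given in the sources used here. The peak names in the deposited lists carry marks for mapping quality 20, dropped mitochondrial reads, dropped duplicates and q 0.001. Each deposited peak has a fold at its summit (a ratio over the caller's background), a -log10 p, a -log10 q and a score, all by the authors, and these served to rank or describe peaks inside their own list. Libraries were tagmented for 45 min at 37 °C and selected for fragments shorter than 700 bp, per the labels.

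Rows that share start and end were taken as 1 peak. Merging gave 100374 regions, of which 76042 were in 2 or more lists. Gene spans came from a RefSeq table of GRCm38.p6 (21887 protein-coding genes, all 21 pathway genes matched), and coordinates are 1-based. Several peaks of a library in 1 region were represented by the strongest. limma 3.58.1 (R 4.3.3) was fitted to all 12 libraries with group means and 6 contrasts. Fisher's exact test ran on regions called in 4 to 8 libraries. Both were tested on simulated data. Scripts ran in Python 3.11.15 with matplotlib 3.10.9, scipy 1.17.1, numpy 2.4.6 and pandas 2.3.3.

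Regions named are those at a gene end, gained or lost, past an unadjusted Fisher p of 0.05 or an adjusted rank p of 0.05, and the strongest per gene, and up to 4 per contrast for pathway genes. Other regions are named where a sentence singles them out, chosen after their values were seen. The members and lists were chosen with earlier results of these data known. Alternatives were equal-length lists (36184 peaks), a -log10 q of at least 5, the strongest 20000 peaks, other distances and list numbers, peaks covering 25% of the region, a wider test range, ranks or log2 values of fold, single peaks, the replicate block, and each library left out. Leaving out the shortest and longest list together was chosen after seeing the data.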

Additional observations from a re-analysis of the deposited data

Results flagged for a closer look

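The region inside Thra, 36.3 kb from Csf3, was singled out because the lines went opposite ways with LPS. All Nur77 libraries with LPS (39.3 to 42.9) ranked above the untreated ones (33.8 to 36.7), and all GFP libraries with LPS (14.2 to 28.7) ranked below the untreated ones (36.8 to 42.5). The LPS difference was larger in the Nur77 line by 0.64 units (95% interval 0.23 to 1.06), and this difference was tested and did not pass (limma interaction, adjusted p = 0.48 over all shared regions).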

How the results depend on the processing

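For the 17 counts of regions near the 4 genes, 246 of 299 recomputed values stayed within 1.5 times the reported value. Values of 0 that stayed 0 are included, so this share says little about counts that were 0, such as that of the interaction. A count has no direction, but no rank change past the adjusted threshold changed sign in an alternative that ranked its region. The number of regions was 22 within 10 kb, 84 within 100 kb and 21 in the strongest 20000 peaks, against 54. In equal-length lists, LPS gave 1 region past the adjusted Fisher test (against 0) and 2 lost in the GFP line (against 0). The regions gained with LPS were other ones than in the deposited lists. In equal-length lists 1 region was gained in Nur77 cells after LPS (44.9 kb downstream of Csf2), against 0. Without LPS 1 was gained (at the Csf2 start) and 1 lost (8.8 kb upstream of Csf1), against 0 each. The shares of all regions for these line counts are not given here. Ranks without LPS then separated the lines at 1 region, against 2.

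With the strongest 20000 peaks, the regions gained with LPS numbered 0 in the Nur77 line (against 2) and 1 in the GFP line (against 3), with 1 lost there. Between the lines 1 region was gained after LPS, 1 was lost without LPS and 1 passed the adjusted Fisher test, against 0 each. Ranks then passed at 2 regions in each LPS contrast, against 6 in the Nur77 line, 6 in the GFP line and 7 on average, and at 0 in both line contrasts, against 3 and 2. This setting and that of single peaks rank fewer regions by construction. With single peaks, 2 passed for LPS in the GFP line, 4 on average, and 1 in each line contrast. Requiring peaks to cover 25% of a region left 1 gained with LPS in the Nur77 line, and a -log10 q of at least 5 gave 1 lost without LPS between the lines. Without the shortest and longest list, 2 were lost with LPS in the GFP line, and 1 was gained in Nur77 cells both after LPS and without it. The shares of all regions in the settings of this paragraph are not given here.

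Leaving out 1 library gave 2 to 4 gained and 0 to 0 lost with LPS in the Nur77 line, 3 to 6 gained and 0 to 2 lost in the GFP line, 0 to 1 gained and 1 to 7 lost between the lines after LPS, and 0 to 1 gained and 0 to 2 lost without LPS. With 1 library left out, the rule for gained and lost asks for fewer libraries at every region, and the shares of all regions are not given here. Fisher counts were 0 to 0 for both comparisons. Rank counts were 5 to 8 in the Nur77 line, 4 to 8 in the GFP line, 7 to 9 on average, 1 to 3 between the lines after LPS, 1 to 2 without LPS, and 0 to 0 for the interaction. Whether same-numbered replicates were handled together is not in the labels. Of their 18 pairs, 2 had a correlation of deviations over 0.1 (-0.157 to 0.144), which cannot decide this. With the replicate block, 5, 6 and 8 regions passed for LPS in the Nur77 line, the GFP line and on average, 3 and 2 between the lines, and 0 for the interaction. The rise 31.8 kb downstream of Csf2 in the Nur77 line was lost (limma, adjusted p = 0.067), and the region at the Csf2 start passed on average (0.049). Of the 3 line differences after LPS 1 was shared, those 35.8 kb upstream of Csf1 and inside Thra were lost (0.052 and 0.061), and the regions inside and at the start of Csf1 passed instead (0.048 and 0.047). Depth is unknown, and weak regions missing from the shorter lists cannot be told apart from closed ones.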
